A study of Mus musculus with 14 samples.

Results

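Metallothioneins are small, cysteine-rich proteins whose thiol groups bind zinc and copper and can also be oxidised. Mt1 and Mt2 are made in many tissues; in the brain they are best known from astrocytes, and metals (through the zinc-sensing factor MTF1), glucocorticoids and inflammatory signals are known to induce them. Mt3 is the form found mostly in the nervous system, first described as a growth inhibitory factor, and is known from neurons rich in vesicular zinc as well as from astrocytes. The mossy fibres of hippocampal granule cells carry such zinc, which the transporter ZnT3, the product of Slc30a3, loads into synaptic vesicles.

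The 3 genes described here were taken by their mouse gene identifiers from a table of 43346 genes, and all 3 passed the filter on low counts that left 18676 genes for testing. The members were chosen by their measured log2 fold changes between CAG-GFP Pilo and CAG-GFP Sham, in which earlier results of these data had Mt1 and Mt2 lower, so that comparison is given below as a description without a test. The libraries came from live GFP-positive cells that the submitters call abGCs, a short form for granule cells born in the adult, taken at day 14 from hippocampi of C57BL/6 mice with the genotype label WT, with 800 to 1000 cells and SMART-Seq v4 cDNA for each library. In the CAG-GFP arm the cells carried GFP behind CAG, a promoter that is active in most cell types. In the DREADD arm they carried a designer receptor, with the letters hm4Di in some of the library names and the word silenced in the label of its pilocarpine group. All 4 groups received CNO, the drug that activates such a receptor. The groups were CAG-GFP Sham (3 libraries) and DREADD Sham (4), without seizures, and CAG-GFP Pilo (4) and DREADD Pilo (3), in which pilocarpine at 300 mg per kg, given after scopolamine methyl nitrate and terbutaline, induced status epilepticus that diazepam ended. The sources used here do not give the age of the mice, the vector or the cells that it reaches, nor whether each library came from separate mice, so the p-values measure the spread between these libraries, which may be partly technical.

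The libraries held 10613291 to 38614639 counts. They fell into 2 sets by the share of counts on pseudogenes: 0.117 to 0.200% in set 1 (CAG-GFP Sham 1 to 3, DREADD Sham 1 and 2, CAG-GFP Pilo 3 and 4) and 4.33 to 8.12% in set 2 (the other 7 libraries), and the style of the library names differs in the same way. Neither set holds both CAG-GFP Sham and DREADD Pilo, so in that comparison the set and the group cannot be told apart. Pairs of CAG-GFP Sham libraries had correlations of log2 CPM across genes of 0.910 to 0.915, against 0.557 to 0.847 for pairs within the other groups. The CAG-GFP Sham libraries are all of set 1, and pairs within the other groups that share a set had 0.651 to 0.847. In CAG-GFP Sham, markers of granule cells were low against those of astrocytes. There, 14 mature granule cell markers summed to 794 to 1125 CPM and 14 astrocyte markers to 28688 to 30139 CPM. CPM is a gene's count scaled to a common library size, here by TMM, which corrects for library composition. In CAG-GFP Pilo 3 and 4 the order was reversed, at 5929 and 1950 CPM of granule cell markers against 871 and 923 CPM of astrocyte markers. The astrocyte sum was the higher in all other libraries. Prox1, the transcription factor that defines granule cells, was at 0 in CAG-GFP Pilo 4 and DREADD Pilo 3, and Dcx, the marker of immature neurons, was at 0 in those libraries and in CAG-GFP Sham 1.

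The members lie within 1 cluster on mouse chromosome 8 (GRCm38, GENCODE M21), all on the plus strand, each protein coding with 3 exons. Mt1 (ENSMUSG00000031765.7) lies at chr8:94179082-94180327, Mt2 (ENSMUSG00000031762.6) at chr8:94172664-94173568 and Mt3 (ENSMUSG00000031760.8) at chr8:94152607-94154146. Their coding sequences are printed because they show what the family shares: with the cysteine codons (TGC and TGT) in capitals, each holds 20 of them, among 61 codons before the stop in Mt1 and in Mt2 and 68 in Mt3.
Mt1: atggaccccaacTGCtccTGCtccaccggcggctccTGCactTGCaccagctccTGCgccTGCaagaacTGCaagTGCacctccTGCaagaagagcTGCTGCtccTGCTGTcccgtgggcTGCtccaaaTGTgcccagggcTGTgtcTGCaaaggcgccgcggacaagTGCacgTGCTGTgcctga
Mt2: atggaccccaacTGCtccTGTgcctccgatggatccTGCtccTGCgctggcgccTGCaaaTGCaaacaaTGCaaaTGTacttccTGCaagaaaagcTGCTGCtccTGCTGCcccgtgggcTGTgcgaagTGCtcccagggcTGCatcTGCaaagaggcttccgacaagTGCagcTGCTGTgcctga
Mt3: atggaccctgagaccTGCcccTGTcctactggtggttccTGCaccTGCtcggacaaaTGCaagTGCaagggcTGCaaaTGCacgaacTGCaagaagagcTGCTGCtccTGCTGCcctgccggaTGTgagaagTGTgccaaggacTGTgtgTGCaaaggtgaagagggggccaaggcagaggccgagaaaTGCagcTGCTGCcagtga
Cysteine thus takes 32.8% of the codons in Mt1 and Mt2 and 29.4% in Mt3. The Mt1 and Mt2 coding sequences align without gaps and are identical at 79.6% of bases, whereas Mt3 is identical to Mt1 at 66.2% and to Mt2 at 67.6% of aligned positions, with 21 gap bases in each alignment. No stretch of 30 bases is common to the annotated transcripts of any of these genes, and the 1 other gene that shares any with a member is Pip5k1a, with 4 such stretches in Mt2. The sources used here do not say how reads with several matches were counted, and shorter reads could be ambiguous between Mt1 and Mt2.

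The bases upstream of the start site are printed because MTF1 binds metal response elements there. The search used the 7-base cores TGCACNC and TGCGCNC on both strands, in the 250 bases before and the 50 bases after each start in the RefSeq annotation of GRCm38.p6. Only the upstream bases are shown, with the cores in capitals (GTGTGCA is a core on the minus strand).
Mt1, chr8:94178839-94179088, plus strand: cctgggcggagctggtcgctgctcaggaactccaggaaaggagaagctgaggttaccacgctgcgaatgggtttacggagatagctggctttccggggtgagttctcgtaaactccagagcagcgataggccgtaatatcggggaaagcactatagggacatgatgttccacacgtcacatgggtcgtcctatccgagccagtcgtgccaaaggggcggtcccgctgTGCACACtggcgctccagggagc
Mt2, chr8:94172368-94172617, plus strand: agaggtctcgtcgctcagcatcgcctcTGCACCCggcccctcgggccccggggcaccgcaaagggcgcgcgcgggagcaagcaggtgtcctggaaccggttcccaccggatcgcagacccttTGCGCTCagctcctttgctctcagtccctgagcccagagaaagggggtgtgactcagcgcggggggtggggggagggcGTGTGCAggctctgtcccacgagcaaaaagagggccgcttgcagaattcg
Mt3, chr8:94152357-94152606, plus strand: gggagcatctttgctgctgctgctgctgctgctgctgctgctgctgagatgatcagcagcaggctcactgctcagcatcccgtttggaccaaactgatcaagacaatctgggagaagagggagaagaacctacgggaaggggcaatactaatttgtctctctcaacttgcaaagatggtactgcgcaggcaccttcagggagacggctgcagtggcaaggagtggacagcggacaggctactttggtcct
Over the whole window Mt1 held 3 cores, at -23, 3 and 21 relative to the start. Mt2 held 4, at -223, -128, -50 and 5, of which the last pair was on the minus strand. The RefSeq start of Mt2 is at 94172618 and the GENCODE transcript above starts at 94172664. The core at 5 (94172622 to 94172628) lies after the first and before the second. Mt3 held 1, at 28, after the start. Of 32851 promoter windows of this length in RefSeq, 25.7% held at least 1 core, 1.97% at least 3 and 0.517% at least 4. These matches describe letters in a window and are not binding sites shown by these data.

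All 3 metallothioneins were at their highest in CAG-GFP Sham, and every library of that group exceeded each of the other 11. Mt1 stood at 16938, 15997 and 19359 CPM in CAG-GFP Sham libraries 1 to 3, against 1012, 884, 320 and 215 CPM in CAG-GFP Pilo. The DREADD Sham libraries had 527, 686, 299 and 188 CPM of Mt1, and the DREADD Pilo libraries 99.2, 620 and 589 CPM. Outside CAG-GFP Sham the groups overlapped, and within CAG-GFP Pilo set 2 was the higher, within DREADD Sham set 1. Mt2 stood at 3423, 3089 and 4115 CPM in CAG-GFP Sham, against 232, 230, 47.5 and 61.7 CPM in CAG-GFP Pilo. The DREADD Sham libraries had 121, 131, 64.3 and 42.8 CPM of Mt2, and the DREADD Pilo libraries 15.3, 109 and 123 CPM. DREADD Pilo 1 was the lowest library for both genes.

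Mt3 stood at 4738, 4502 and 5778 CPM in CAG-GFP Sham and at 307, 292, 216 and 152 CPM in CAG-GFP Pilo. It was more spread in the DREADD arm, at 170, 259, 22.6 and 21.8 CPM in DREADD Sham and at 11.98, 115 and 590 CPM in DREADD Pilo. The library with the highest Mt3 outside CAG-GFP Sham was DREADD Pilo 3, in which the 10 ependyma and choroid plexus markers summed to 191161 CPM, against 1056 and 1378 CPM in the other DREADD Pilo libraries. Mitochondrial genes took 25.8% of the counts of DREADD Pilo 3, against 2.58 and 4.504% in the others of its group. In DREADD Sham, libraries 1 and 2, which had the higher Mt3, had 17285 and 17365 CPM of the same markers, against 711 and 458 CPM in libraries 3 and 4. In CAG-GFP Pilo, library 3 had 9753 CPM of them, against 382, 350 and 539 CPM in libraries 1, 2 and 4. Its Mt3, at 216 CPM, was nevertheless below that of libraries 1 and 2 and above that of library 4. The part of these cells and of the mitochondrial share in the Mt3 level was not tested. The mitochondrial share was 11.6 to 12.7% in CAG-GFP Sham, 12.7 and 13.9% in CAG-GFP Pilo 1 and 2, and 2.06 to 4.90% in the other CAG-GFP Pilo libraries and in DREADD Sham. Without DREADD Pilo 3 the DREADD Pilo mean of Mt3 went from 239 to 63.7 CPM, and without DREADD Sham 2 the DREADD Sham mean went from 118 to 71.4 CPM. Mt4, the family member known from stratified epithelia, had 51 counts in DREADD Sham 1 and 0 in the other libraries.

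**Figure D1:**
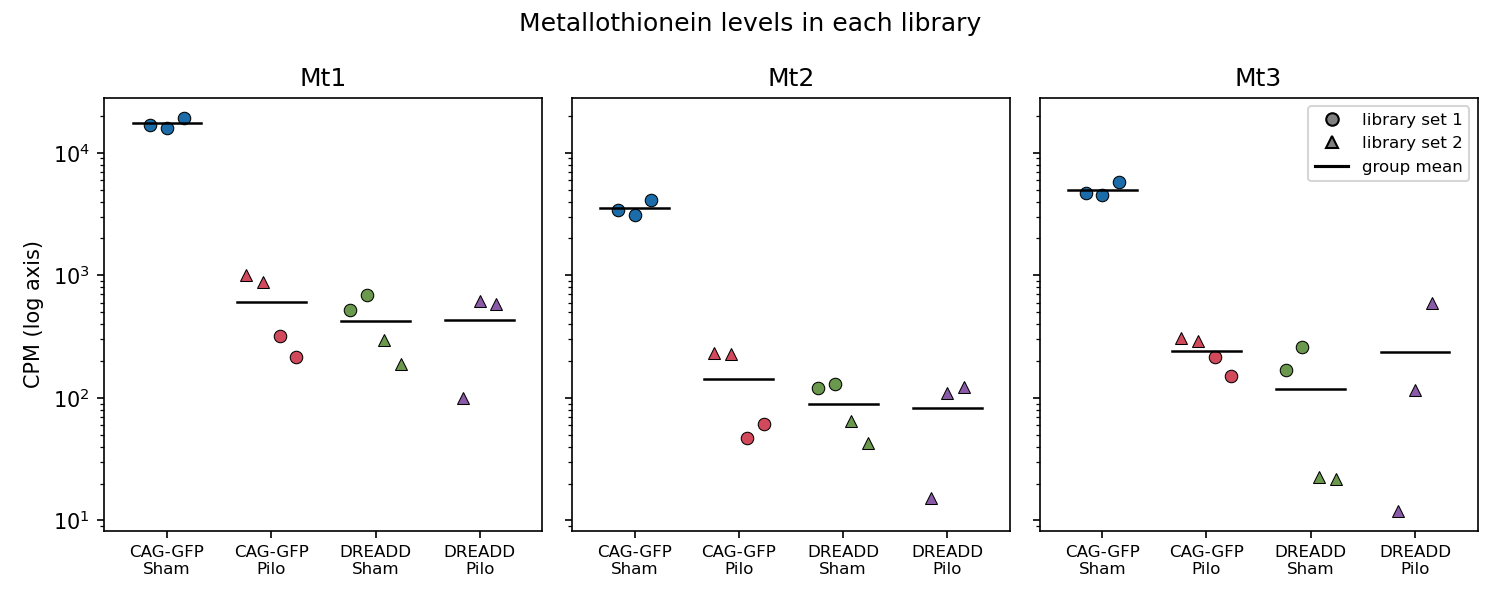
Levels of Mt1, Mt2 and Mt3 in the 14 libraries, in CPM on a log axis, by group; circles are library set 1, triangles library set 2, and lines are group means. The 3 CAG-GFP Sham libraries lie above all others for each gene (Mt1 at 15997 CPM or more, against 1012 CPM or less elsewhere).

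As group means, Mt1 was 17431 ± 1735 CPM (SD, n = 3) in CAG-GFP Sham and 608 ± 399 (n = 4) in CAG-GFP Pilo, with 425 ± 224 (n = 4) in DREADD Sham against 436 ± 292 (n = 3) in DREADD Pilo. Mt2 was 3543 ± 523, 143 ± 102, 89.8 ± 43.0 and 82.2 ± 58.4 CPM in the same order, and Mt3 was 5006 ± 679, 242 ± 72.0, 118 ± 117 and 239 ± 308 CPM. For each gene the libraries of the other 3 groups overlapped. Per kilobase of transcript, Mt1 was the most abundant in CAG-GFP Sham at 31751 ± 3160 CPM per kb, Mt3 followed at 9339 ± 1267 and Mt2 was at 6933 ± 1024. The 3 genes together took 1.82 ± 0.161% of all counts in CAG-GFP Sham and 0.106 ± 0.0487% in CAG-GFP Pilo, with 0.0778 ± 0.0506% in DREADD Sham against 0.0658 ± 0.0450% in DREADD Pilo. A pattern with every CAG-GFP Sham library above all 11 others was held by 1332 of the 18676 tested genes, or 7.13%. In sorted cells pooled for a library, fewer cells of a type and less RNA per cell cannot be told apart.

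The comparison of CAG-GFP Pilo with CAG-GFP Sham asks what seizures changed in the sorted cells when they were not silenced. Here the log2 fold change was -4.84 ± 0.77 (SE) for Mt1, -4.63 ± 0.80 for Mt2 and -4.37 ± 1.08 for Mt3, which is 28.7-fold, 24.8-fold and 20.7-fold lower. For all 3 the groups did not overlap, which held for 12.2% of tested genes in the same direction. Since the members were chosen with this comparison known, nothing is read from that count. Within library set 1, the 2 CAG-GFP Pilo libraries had lower Mt1 and Mt2 than those of set 2, and the log2 fold changes against CAG-GFP Sham were -6.06 for Mt1, -6.04 for Mt2 and -4.80 for Mt3. With any 1 of the 7 libraries left out, the Mt1 log2 fold change ran from -5.20 to -4.56.

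The comparison of DREADD Sham with CAG-GFP Sham sets the arms side by side without seizures. Mt1 and Mt2 fell in DREADD Sham: the log2 fold change was -5.36 ± 0.78 (SE, edgeR adjusted p = 0.0133) for Mt1 and -5.30 ± 0.82 (edgeR adjusted p = 0.0181) for Mt2. Mt3 had a log2 fold change of similar size, -5.40 ± 1.13, with a larger error, and did not pass (edgeR adjusted p = 0.0601). Thus 2 of 3 members were called, where 0.300% of all tested genes were called and 0.246% were called lower, and all 3 genes were lower in 4 of 4 DREADD Sham libraries without overlap, as were 12.7% of tested genes. This comparison uses the same CAG-GFP Sham libraries as the one through which the members were chosen, so it is not independent of that choice. The Mt1 call ended without CAG-GFP Sham 3 (edgeR adjusted p = 0.0507) and without DREADD Sham 1 (0.0637), 3 (0.0863) or 4 (0.0649), and the Mt2 call ended without any 1 of the 7 libraries (0.0535 to 0.0999). When CAG-GFP Sham entered as 1 summed library, so that the other groups supply the spread, the adjusted p was 0.255 and 0.425, and edgeR called 0 genes in any comparison that holds that group. Within library set 1 the log2 fold change of Mt3 was -4.57 (edgeR adjusted p = 0.000759), past the threshold. That fit called more genes of every kind, 109 higher and 421 lower of 17260 tested, against 10 and 46 of 18676 with all libraries.

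DREADD Pilo was compared with CAG-GFP Sham, the unsilenced group without seizures. Mt1 fell by 5.32 ± 0.89 on the log2 scale (SE, edgeR adjusted p = 0.0265) and Mt2 fell by 5.43 ± 0.94 (edgeR adjusted p = 0.0325). Mt3, at -4.39 ± 1.22 on the log2 scale, did not pass (edgeR adjusted p = 0.152). All 3 were lower in 3 of 3 DREADD Pilo libraries without overlap, as were 14.9% of tested genes, and the 2 calls compare with 0.225% of tested genes called and 0.161% called lower. The CAG-GFP Sham libraries are shared here too. Without DREADD Pilo 3, the library with the choroid plexus markers, the log2 fold change of Mt3 was -6.36 and past the threshold (edgeR adjusted p = 0.0482), and the Mt1 (0.0287) and Mt2 (0.0318) calls held. Calls rose broadly in that fit: 66 genes were called higher and 86 lower of 19905 tested, against 12 and 30 of 18676 with all libraries. The Mt1 and Mt2 calls ended without any 1 of the other 5 libraries, CAG-GFP Sham 1, 2 or 3 or DREADD Pilo 1 or 2. The edgeR adjusted p-values were then 0.0743 to 0.0921 for Mt1 and 0.0817 to 0.123 for Mt2. Both calls ended also with the library set as a covariate (edgeR adjusted p = 0.0613 and 0.0645). The set term in that fit rests on CAG-GFP Pilo and DREADD Sham, the groups that hold both sets. Within these, Mt1 and Mt2 differed between the sets in opposite directions, so that fit cannot separate set from group here.

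**Figure D2:**
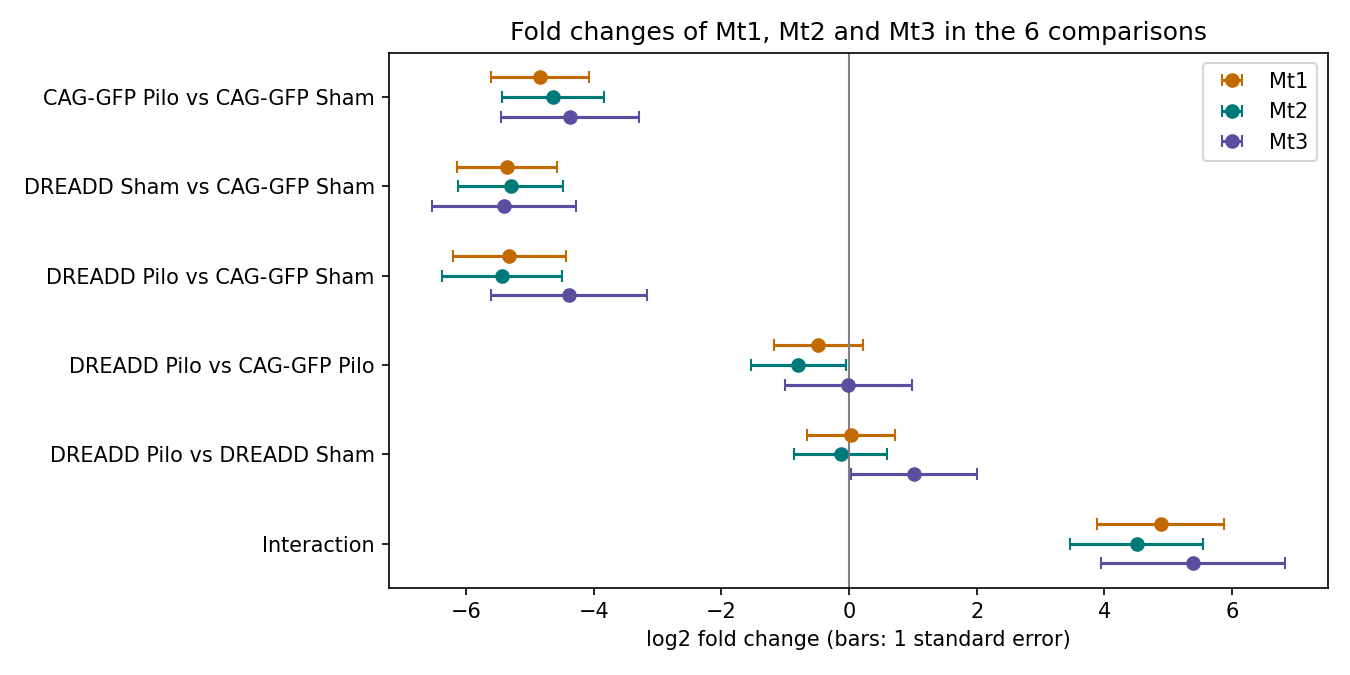
Log2 fold changes of Mt1, Mt2 and Mt3 in the 6 comparisons, with bars of 1 standard error; values below 0 are lower in the group named first. The comparisons with CAG-GFP Sham lie between -5.43 and -4.37, those among the other groups between -0.79 and 1.02, and the interaction, which holds the first comparison, between 4.51 and 5.39.

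Away from CAG-GFP Sham no difference in the members passed. DREADD Pilo against CAG-GFP Pilo asks what silencing changed under seizures, and the log2 fold change was -0.48 for Mt1 (95% interval -1.97 to 1.01), -0.79 for Mt2 (-2.38 to 0.79) and -0.01 for Mt3 (-2.14 to 2.11). DREADD Pilo against DREADD Sham asks what seizures changed in the silenced arm, and it was 0.04 for Mt1 (-1.44 to 1.51), -0.13 for Mt2 (-1.68 to 1.43) and 1.02 for Mt3 (-1.09 to 3.12). The intervals reach differences of more than 1 log2 unit either way, except the upper limit of Mt2 in the first of these comparisons, so they do not show that the groups are alike. The groups overlapped for all 3 members in both comparisons. Of all tested genes, 5.69% lay higher and 3.15% lower without overlap in the first, and 4.39% and 2.23% in the second. edgeR called 0 genes (0% of those tested) in either comparison, with 1001 and 967 genes at an unadjusted p under 0.05. DESeq2 called 231 and 180 genes, and limma voom 0 in both. The signs of the small differences of Mt3 in the first comparison and of all 3 members in the second depended on the setting.

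The interaction asks whether the seizure difference in the DREADD arm differs from that in the CAG-GFP arm. It was 4.88 ± 0.99 (SE) on the log2 scale for Mt1, 4.51 ± 1.04 for Mt2 and 5.39 ± 1.44 for Mt3, with edgeR adjusted p-values of 0.219, 0.219 and 0.282. It contains the comparison through which the members were chosen and thus restates that CAG-GFP Sham was high. edgeR called 0 genes (0%) for the interaction, with 2191 at an unadjusted p under 0.05, while limma voom called 37 and DESeq2 1569. In DESeq2 the Mt1 adjusted p was 0.000133, that of Mt2 0.00154 and that of Mt3 0.00468. Over 23 alternatives the interaction was positive for each member.

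An exact two-sided permutation test over libraries on log2(CPM + 1), with adjustment over 12 tests, gave p = 0.0286 for each member in DREADD Sham against CAG-GFP Sham, the smallest p that 4 against 3 libraries allow (adjusted p = 0.114). For DREADD Pilo against CAG-GFP Sham the exact permutation test gave p = 0.1 for each, the smallest that 3 against 3 libraries allow (adjusted p = 0.2). In the comparisons among the other groups this exact test gave p = 0.4 to 0.914 over the 3 members.

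Mt1 and Mt2 kept a ratio between 3.49 and 6.74 in all 14 libraries. The ratio of Mt1 to Mt2 counts was 4.95, 5.18 and 4.70 in CAG-GFP Sham and 4.36, 3.85, 6.74 and 3.49 in CAG-GFP Pilo. It was 4.34, 5.23, 4.66 and 4.38 in DREADD Sham and 6.47, 5.70 and 4.81 in DREADD Pilo. The groups overlapped and the extremes were both in CAG-GFP Pilo. Mt3 was less tightly tied to the other members. The ratio of Mt1 plus Mt2 to Mt3 was 4.30, 4.24 and 4.06 in CAG-GFP Sham, and 4.05, 3.82, 1.70 and 1.82 in CAG-GFP Pilo. It was 3.82, 3.16, 16.0 and 10.6 in DREADD Sham and 9.55, 6.31 and 1.21 in DREADD Pilo. Thus Mt3 made up 5.87% of the summed counts of the 3 genes in DREADD Sham 3 and 45.3% in DREADD Pilo 3, with 18.9 to 19.8% in the CAG-GFP Sham libraries. Within DREADD Sham the 2 high ratios were those of library set 2, while within CAG-GFP Pilo the 2 low ratios were those of set 1. Of 8 exact permutation tests of the 2 ratios none passed (adjusted p = 0.6 to 1). The smallest unadjusted p is 0.0286 with 4 against 3 libraries and 0.1 with 3 against 3, so after adjustment over 8 tests no single ratio could have passed.

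**Figure D3:**
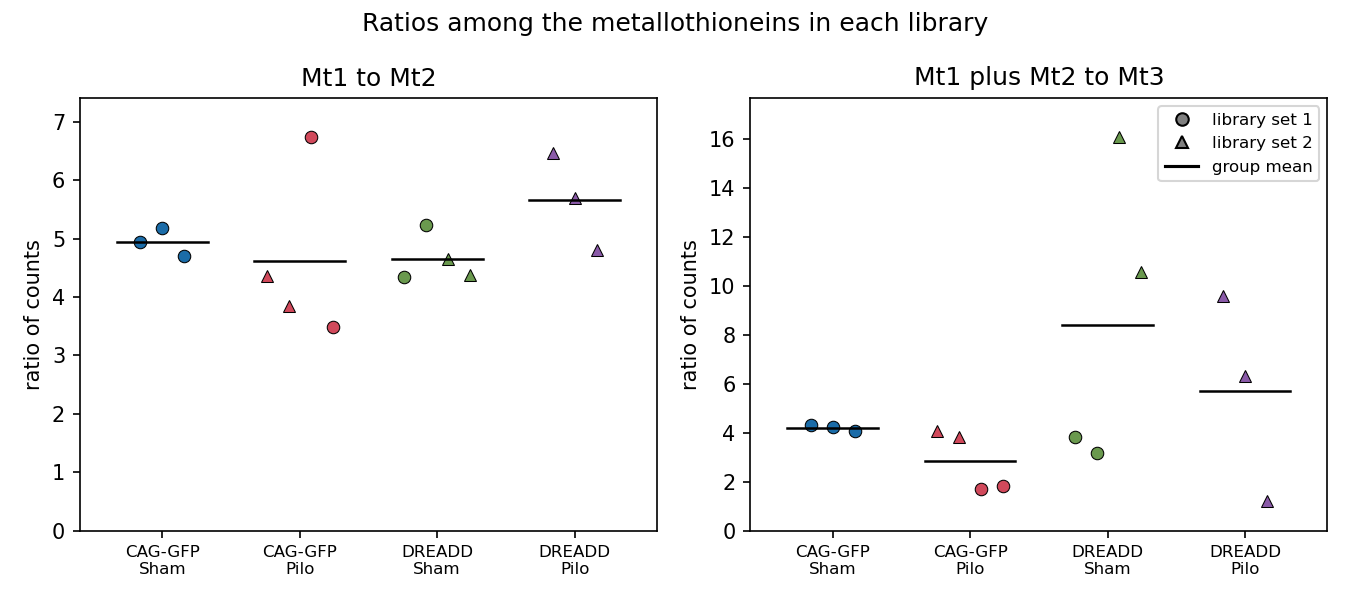
Ratio of Mt1 to Mt2 counts (left) and of Mt1 plus Mt2 to Mt3 counts (right) in the 14 libraries by group, with circles for library set 1, triangles for set 2 and lines for group means. The first ratio runs from 3.49 to 6.74 and the second from 1.21 to 16.0, with the CAG-GFP Sham libraries close together in both.

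Across the 14 libraries the correlation of log2(CPM + 1) between Mt1 and Mt2 was Pearson r = 0.995 (Spearman rho = 0.974). It was 0.932 (rho = 0.903) between Mt1 and Mt3 and 0.932 (rho = 0.916) between Mt2 and Mt3. CAG-GFP Sham stands apart from the rest, and over the other 11 libraries r was 0.969, 0.800 and 0.781 for the same pairs. These are descriptions without a test, since libraries of a group share their condition and the values share library scaling.

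The genes most like the members in pattern were ranked by r over the 14 libraries among 11410 other tested genes with a mean of at least 5 CPM. After Mt2, those most like Mt1 were Cpe, a carboxypeptidase that processes neuropeptides (r = 0.976, rho = 0.925), the antioxidant enzyme Prdx6 (0.965, 0.938), the phosphohistidine phosphatase Phpt1 (0.962, 0.890) and Clu, the secreted chaperone clusterin (0.959, 0.793). After Mt1, those most like Mt2 were Prdx6 (0.969, 0.934), Cpe (0.965, 0.890), Rida (0.952, 0.868) and Phpt1 (0.951, 0.886). None of these is on the list of Mt3, whose 5 were Dbi, the acyl-CoA binding protein that also acts as diazepam binding inhibitor (r = 0.974, rho = 0.868), the proteasome component Sem1 (0.974, 0.956), Minos1 (0.972, 0.890), Selenok (0.970, 0.890) and the complex I subunit Ndufa7 (0.969, 0.846). Without CAG-GFP Sham (11 libraries) r with Mt1 was 0.813 for Cpe, 0.849 for Prdx6, 0.719 for Phpt1 and 0.750 for Clu. With Mt2 it was 0.861 for Prdx6, 0.760 for Cpe, 0.761 for Rida and 0.673 for Phpt1. For the 5 genes of Mt3 it ran from 0.918 (Minos1) to 0.971 (Sem1). With the 2 libraries farthest from the median left out, r ran from 0.895 (Mt2 with Phpt1) to 0.989 (Mt1 with Mt2). Cpe itself was at 17800 ± 842 CPM (SD) in CAG-GFP Sham and 1164 ± 792 in CAG-GFP Pilo, with 645 ± 240 in DREADD Sham against 588 ± 158 in DREADD Pilo, and Sem1 was at 342 ± 48.7, 129 ± 24.6, 69.7 ± 34.4 and 129 ± 114 CPM in the same order.

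Astrocyte markers, like the metallothioneins, were highest as a sum in CAG-GFP Sham. Among the other libraries, the marker sums and Mt1 did not keep a common order. In CAG-GFP Pilo, libraries 1 and 2, with 6629 and 5263 CPM of these markers, had the higher Mt1. In DREADD Sham, library 3 had the most markers, 5111 CPM, with 299 CPM of Mt1. Libraries 1 and 2 of that group, with 2127 and 3019 CPM of markers, had 527 and 686 CPM of Mt1. The 14 markers summed to 28688 to 30139 CPM in CAG-GFP Sham and 871 to 6629 CPM in CAG-GFP Pilo, with 2127 to 5111 CPM in DREADD Sham against 1693 to 3744 CPM in DREADD Pilo. All 14 had negative log2 fold changes against CAG-GFP Sham in each of the 3 comparisons, save 1 of 14 in CAG-GFP Pilo when scaled by library totals only. Their medians were -3.21, -3.14 and -3.79 (CAG-GFP Pilo first, DREADD Pilo last), against medians over all tested genes of 0.41, 0.53 and 0.66. edgeR called 1, 2 and 2 of the 14, all lower, where it called 0.241, 0.300 and 0.225% of all genes (0.171, 0.246 and 0.161% lower). DESeq2 called 8, 5 and 10 of them and limma voom 12, 12 and 8, and the 3 comparisons share CAG-GFP Sham. The water channel Aqp4 had 1156 ± 30.6 CPM (SD) in CAG-GFP Sham and 84.0 ± 85.5 in CAG-GFP Pilo, with 106 ± 87.5 in DREADD Sham against 116 ± 74.0 in DREADD Pilo, and Aqp4, Aldh1l1 and Sox9 were at 0 in CAG-GFP Pilo 4. Aldoc, a glycolytic aldolase of astrocytes, was called in DREADD Pilo, where it fell by 4.62 ± 0.84 on the log2 scale (SE, edgeR adjusted p = 0.0404). Acsbg1, an acyl-CoA synthetase, was called in DREADD Sham at -3.39 ± 0.67 (edgeR adjusted p = 0.0495) and in DREADD Pilo at -5.03 ± 0.81 (0.0194), and Slc4a4, a bicarbonate transporter, in DREADD Sham at -3.54 ± 0.67 (0.0451). The edgeR adjusted p of Acsbg1 and Slc4a4 in DREADD Sham was 0.104 to 0.213 without any 1 of the 7 libraries. In DREADD Pilo the Acsbg1 and Aldoc calls held without DREADD Pilo 3 (0.0347 and 0.0459) and ended without any 1 of the other 5 (0.0640 to 0.184). With RLE factors and with library totals the calls of Acsbg1 in DREADD Sham (0.0635, 0.109), Slc4a4 (0.0584, 0.0976) and Aldoc (0.0537, 0.0605) ended. Gfap, the intermediate filament of astrocytes, was at 666 ± 66.9, 463 ± 457, 181 ± 37.3 and 355 ± 344 CPM (SD) in the order of groups above and was not called.

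Relative to the astrocyte sum, Mt1 was at 0.557 to 0.642 CPM for each CPM of astrocyte markers in CAG-GFP Sham and at 0.0585 to 0.367 in the other libraries. Mt2 was at 0.108 to 0.137 in CAG-GFP Sham and 0.00905 to 0.0712 elsewhere. Since the members were chosen with the high Mt1 and Mt2 of CAG-GFP Sham known, nothing is read from this separation. Mt3 overlapped: it was at 0.157 to 0.192 in CAG-GFP Sham, but at 0.247 in CAG-GFP Pilo 3, 0.165 in CAG-GFP Pilo 4 and 0.343 in DREADD Pilo 3. Other cell types moved as well. The 8 markers of oligodendrocyte precursors summed to 25.2 to 45.6 CPM in CAG-GFP Sham and 47.9 to 1714 CPM in the other libraries, and 10 oligodendrocyte markers to 596 to 704 CPM and 403 to 43757 CPM. Of the 8 precursor markers, the sialidase Neu4, the receptor Pdgfra and the proteoglycan Cspg4 were higher in DREADD Sham (edgeR adjusted p = 0.0181, 0.0296 and 0.0451) and in DREADD Pilo (0.0166, 0.0414 and 0.0480). In these comparisons edgeR called 10 and 12 of all 18676 tested genes higher. Neu4 and Cspg4 had 0 counts in CAG-GFP Sham and Pdgfra 20 in total. The filter on low counts thus kept them through the groups where they are high, and nothing is read from their calls. With 1 library left out in turn, the calls of Neu4, Pdgfra and Cspg4 held in 1, 0 and 0 of 7 fits in DREADD Sham and in 3, 1 and 1 of 6 fits in DREADD Pilo. The Cspg4 calls also ended with RLE factors (0.0505 in DREADD Sham, 0.0537 in DREADD Pilo), library totals (0.0625, 0.0603) and the library set as a covariate (0.0507, 0.135), and those of Pdgfra in limma voom (0.0981, 0.108) and, in DREADD Pilo, with the set (0.102). The part of these cell types in the metallothionein levels was not tested.

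**Figure D4:**
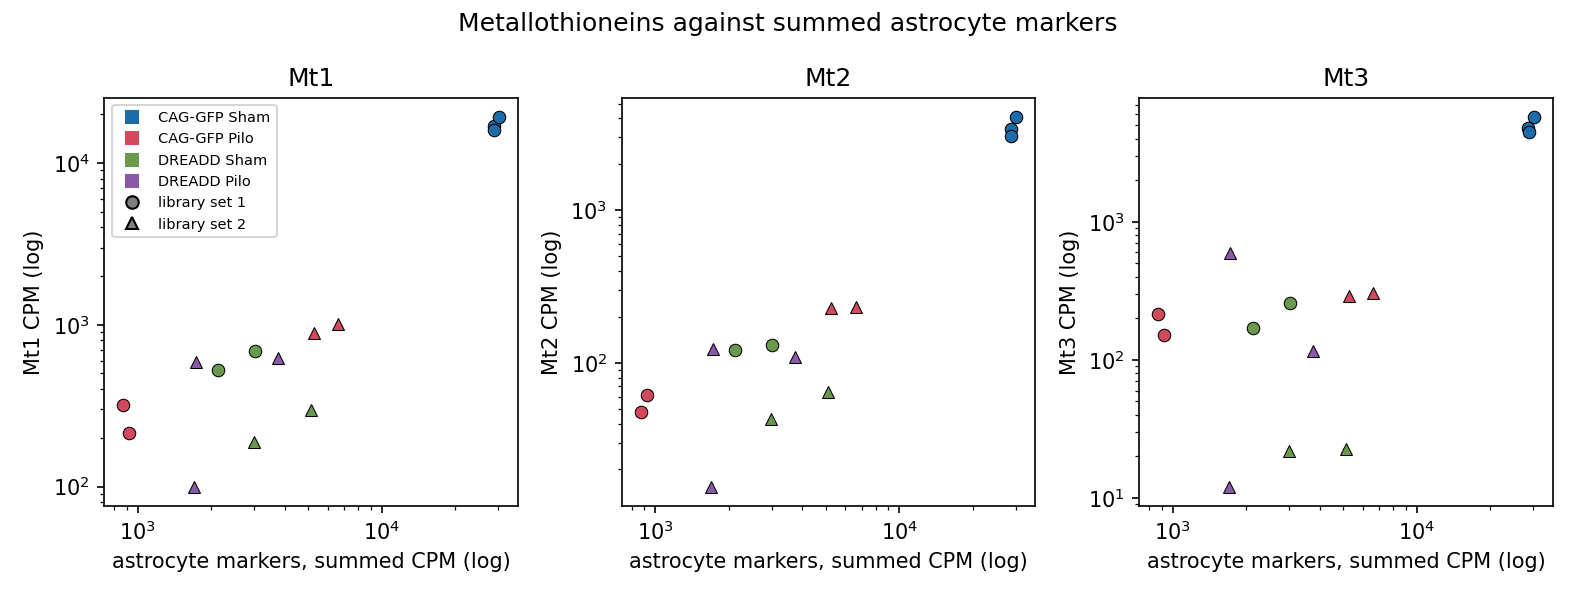
Mt1, Mt2 and Mt3 (CPM, log axis) against the summed CPM of 14 astrocyte markers (log axis), 1 point for each of the 14 libraries, coloured by group, with circles for library set 1 and triangles for set 2. The CAG-GFP Sham libraries stand alone at the upper right, at 28688 CPM of astrocyte markers or more, and the other 11 lie at 6629 CPM or less.

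The metallothioneins were set beside 8 lists of genes for zinc, copper and iron handling, factors that act on metallothionein genes, glucocorticoid and STAT3 responses and antioxidant defence. Of 94 tested entries, 16 had every CAG-GFP Sham library above all 11 others, where 7.13% of all tested genes did. They were 6 of 16 antioxidant genes (Gclm, Slc7a11, Prdx1, Prdx6, Gpx4 and Txn1), 3 of 13 copper genes (Ccs, Sod1 and Cox17) and 3 of 12 STAT3 and reactive astrocyte genes (Vim, Osmr and Timp1), with 2 of 11 iron genes (Tfrc and Heph), 1 of 13 zinc importers (Slc39a12) and 1 of 14 glucocorticoid-induced genes (Gjb6, which is also an astrocyte marker). None of 8 zinc exporters or 7 factors had it. Genes named only here were chosen after their values were seen. edgeR called 0 of the 94 in all 6 comparisons, where it called at most 0.300% of all genes. At an unadjusted p under 0.05 there were 17, 19 and 16 in the comparisons with CAG-GFP Sham (CAG-GFP Pilo first, DREADD Pilo last), as were 2871, 3474 and 3579 of all 18676 genes, with 12, 14 and 13 called by DESeq2 and 13, 13 and 9 by limma voom. In the other 3 comparisons 4 to 13 entries were under that p, with 0 to 7 called by DESeq2 and 0 or 1 by limma voom. These lists, like the members, were drawn up with earlier results known.

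Among the factors that act on metallothionein genes, 6, 5 and 7 of 7 had positive log2 fold changes against CAG-GFP Sham (CAG-GFP Pilo first, DREADD Pilo last), with medians of 1.30, 0.96 and 1.11 beside 0.41, 0.53 and 0.66 over all genes. Mtf1, the zinc sensor itself, was at 34.1 ± 14.9 CPM (SD) in CAG-GFP Sham and 83.7 ± 52.6 in CAG-GFP Pilo, with 79.6 ± 29.4 in DREADD Sham against 116 ± 77.4 in DREADD Pilo, without a call. The glucocorticoid receptor Nr3c1 was at 103 ± 6.16, 64.4 ± 53.1, 78.6 ± 52.8 and 104 ± 40.8 CPM in the same order, and Fkbp5, which glucocorticoids induce, at 3.32 ± 2.11, 12.4 ± 7.73, 21.9 ± 25.6 and 17.2 ± 25.5 CPM. Stat3, the mediator of cytokine signals, was at 32.6 ± 7.40, 82.8 ± 70.3, 63.5 ± 38.7 and 61.5 ± 33.2 CPM. Of 14 glucocorticoid-induced genes 5, 9 and 10 had positive log2 fold changes in the 3 comparisons (medians -0.22, 0.58 and 0.44), and of 12 STAT3 and reactive astrocyte genes 5, 5 and 6 (medians -0.30, -0.68 and 0.11). Scaled by library totals only, the signs of the first of these glucocorticoid medians and of the first pair of STAT3 medians turned, to 0.44, 0.33 and 0.11, and scaled on nuclear genes the third STAT3 median turned to -0.04.

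For zinc transport, 2, 2 and 6 of 8 tested exporters had positive log2 fold changes in the same order of comparisons (medians -0.66, -0.79 and 0.35, or -0.02, -0.01 and 0.76 with 3, 4 and 6 positive by library totals), and 8, 7 and 9 of 13 tested importers (medians 0.53, 0.16 and 0.79). Slc30a1, the plasma membrane exporter that MTF1 also induces, was at 32.0 ± 13.1 CPM (SD) in CAG-GFP Sham and 20.1 ± 10.6 in CAG-GFP Pilo, with 12.7 ± 14.4 in DREADD Sham against 47.4 ± 27.8 in DREADD Pilo. Slc30a3, the vesicular zinc transporter of granule cells, was at 0.10, 1.43 and 0 CPM in the CAG-GFP Sham libraries and at 19.9, 23.2, 68.4 and 30.9 CPM in CAG-GFP Pilo, where DREADD Sham ran from 0 to 46.9 CPM and DREADD Pilo from 0 to 7.10 CPM. These groups overlapped CAG-GFP Sham, and no difference passed (CAG-GFP Pilo log2 fold change 6.11 ± 2.36 SE, edgeR adjusted p = 0.287). Slc39a12, a zinc importer known from astrocytes, was at 475 ± 25.8 CPM in CAG-GFP Sham and 41.6 ± 36.0 in CAG-GFP Pilo, with 50.2 ± 34.0 in DREADD Sham against 94.99 ± 116 in DREADD Pilo, with 227 CPM in DREADD Pilo 3, and was not called either (edgeR adjusted p = 0.209, 0.176 and 0.254). Slc30a10, an exporter of manganese, was at 40.1 ± 22.3, 12.6 ± 18.6, 13.4 ± 3.92 and 3.72 ± 4.21 CPM and Slc39a14, an importer of zinc, iron and manganese, at 22.3 ± 8.30, 25.98 ± 26.9, 7.20 ± 3.00 and 40.3 ± 19.3 CPM. Slc39a8, a related importer, reached at most 23.7 CPM in any library.

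Copper and iron genes were mixed. Of 13 copper handling genes 4, 5 and 6 had positive log2 fold changes against CAG-GFP Sham (medians -0.65, -0.74 and -0.03, which library totals alone turned to 0.17, 0.08 and 0.48; RLE factors turned the last to 0.10), and of 11 iron handling genes 4, 6 and 6 (medians -0.16, 0.02 and 0.03, which turned to 0.50 by library totals in the first and to -0.11 in the other comparisons on nuclear genes). Sod1, the copper and zinc superoxide dismutase, was at 270 ± 14.8 CPM (SD) in CAG-GFP Sham and 86.9 ± 70.5 in CAG-GFP Pilo, with 42.5 ± 40.4 in DREADD Sham against 54.2 ± 65.8 in DREADD Pilo, without a call. Fth1, the ferritin heavy chain, was abundant and even, at 5132 ± 1333, 4606 ± 1353, 5210 ± 1411 and 4008 ± 1463 CPM.

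Among 16 antioxidant genes, targets of the factor NRF2 for the most part, 12, 12 and 10 had negative log2 fold changes against CAG-GFP Sham, with medians of -1.42, -1.45 and -0.18 (0.19 in the last when scaled by library totals only). Prdx6, which was also among the genes most like Mt1 and Mt2, was at 5260 ± 315 CPM (SD) in CAG-GFP Sham and 905 ± 657 in CAG-GFP Pilo, with 665 ± 145 in DREADD Sham against 654 ± 349 in DREADD Pilo, and its log2 fold change in DREADD Sham was -2.98 ± 0.62 (SE, edgeR adjusted p = 0.0601). Nfe2l2, which encodes NRF2, was at 165 ± 15.4, 189 ± 128, 213 ± 137 and 356 ± 157 CPM, and Hmox1, its heme oxygenase target, at 47.1 ± 22.0, 22.1 ± 13.5, 27.1 ± 18.6 and 41.2 ± 14.9 CPM. No difference of Nfe2l2 from CAG-GFP Sham was called (edgeR adjusted p = 0.459 in DREADD Pilo). Its lowest DREADD Pilo library, at 189 CPM, was close to the highest of CAG-GFP Sham, at 182 CPM, and its other groups overlapped with CAG-GFP Sham.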

How the data were processed

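The authors deposited raw counts per gene for 14 libraries, which are whole numbers and not normalized. The tools named, per the submitters' processing notes, include Bowtie2, Subread with featureCounts, and edgeR in R 4.1.1; the build they name, hg38, does not match the table's mouse Ensembl identifiers. Strand setting and the treatment of reads with several matches: not given in the sources used here. Symbols came from GENCODE M21 (GRCm38) by identifier without version (42462 of 43346 matched, 98%), and coding sequences from its transcripts; promoter windows came from the RefSeq table for GRCm38.p6.

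The libraries were grouped by their titles. Counts were tested with edgeR 4.0.16 (R 4.3.3): TMM factors, filterByExpr (18676 genes left), 1 quasi-likelihood fit of all 14 libraries, Benjamini-Hochberg adjustment over all tested genes and a threshold of 0.05. The biological coefficient of variation was 1.47. The script was tested on simulated data. CPM used the TMM library sizes. Exact permutation tests over libraries used log2(CPM + 1) and log2 ratios with 0.5 added to each count. Library sets were divided at a pseudogene share of 1%. Alternatives included DESeq2 1.42.0, limma 3.58.1 voom, other scalings, no filter, the library set, a replicate block and each library left out; 2 were chosen after seeing the data (CAG-GFP Sham summed to 1 library, and scaling on nuclear genes other than the members). Replicates were compared by chi-square, and each pair differed beyond counting noise.

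The members, gene lists and tests were chosen with earlier results of these data known. Named genes were the members, Mt4, a set of metal carriers, regulators and astrocyte genes, up to 3 called members from each list in each comparison, and the 5 genes most like each member by Pearson r.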

Additional observations from a re-analysis of the deposited data

How the results depend on the processing

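Against CAG-GFP Sham, all 3 members were lower under each of the 16 to 18 alternatives run. Every CAG-GFP Sham library exceeded all others for each member, which left the direction little room to turn, so little is read from this. The replicate numbers do not pair the libraries: deviations of same-numbered libraries had a mean r of -0.0683 (-0.418 to 0.142), against 0.0237 for different numbers, and 1 library was closest to its own number. With the replicate block, the calls in DREADD Sham ended (Mt1 -5.14, adjusted p = 0.0842; Mt2 -5.11, 0.0951), as did those in DREADD Pilo (Mt1 -5.38, 0.0793; Mt2 -5.48, 0.0830), Mt3 in CAG-GFP Pilo was -3.90, Mt1 in DREADD Pilo against DREADD Sham turned to -0.25, and the genes called against CAG-GFP Sham became 1, 0 and 9 (CAG-GFP Pilo, DREADD Sham, DREADD Pilo) from 45, 56 and 42. With CAG-GFP Sham as 1 library, assumed to vary like the other groups, 0 genes were called, so the loss of calls says little of the members, which were -5.29 (Mt1) and -5.22 (Mt2) in DREADD Sham and -5.24 and -5.34 in DREADD Pilo. With the library set as a covariate the calls in DREADD Pilo ended (-5.58 and -5.85), Mt3 in CAG-GFP Pilo was -3.46, Mt3 against CAG-GFP Pilo turned to 0.35, Mt1 against DREADD Sham turned to -0.15, and 89, 146 and 40 genes were called. Within set 1, CAG-GFP Pilo gave -6.06, -6.04 and -4.80, Mt3 in DREADD Sham gained a call (-4.57), and 471 and 530 genes were called; within set 2, Mt2 against DREADD Sham turned to 0.62. Mt3 in DREADD Sham also gained a call without the filter (-5.40), in DESeq2 (-5.41), in voom (-5.86) and with only the 2 groups fitted (-5.38), and in DREADD Pilo in DESeq2 (-4.18) and voom (-6.28). The interaction passed in DESeq2 (4.92, 4.53 and 5.55 for Mt1, Mt2 and Mt3) and for Mt1 in voom (5.08). RLE factors and DESeq2 turned Mt3 against CAG-GFP Pilo to 0.14 in each; library totals gave Mt3 -3.72 in CAG-GFP Pilo and Mt1 -0.39 against DREADD Sham; voom gave Mt1 -0.49 and Mt3 -0.42 there. The cause of these differences was not tested.

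Counts of called genes against CAG-GFP Sham were 2412, 2932 and 2955 in DESeq2, 777, 858 and 1005 in voom and 168, 647 and 2407 with only the 2 groups fitted, and 13 in DREADD Sham with library totals. Higher genes were 28.9, 17.9 and 28.6% of the calls, but 53.1, 38.5 and 43.3% with library totals, 76.5, 74.5 and 70.1% in DESeq2, and 54.8% (voom) and 54.3% (2 groups) in DREADD Pilo. The median log2 fold change of all genes was 0.41, 0.53 and 0.66, and 1.08, 1.30 and 1.11 with library totals.

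With 1 library left out, DREADD Sham gave Mt1 -5.69 to -5.11, Mt2 -5.54 to -5.07 and Mt3 -6.13 to -5.06; DREADD Pilo gave -5.71 to -4.90, -5.90 to -4.99 and -6.36 to -3.87; CAG-GFP Pilo gave -5.20 to -4.56, -5.02 to -4.34 and -4.52 to -4.20. DREADD Pilo against CAG-GFP Pilo gave -0.80 to -0.00179, -1.20 to -0.29 and -1.94 to 0.55, and against DREADD Sham -0.32 to 0.49, -0.57 to 0.34 and -0.93 to 1.75. The interaction gave 4.59 to 5.39, 4.13 to 5.04 and 3.50 to 6.12. The difference in log2((Mt1 + Mt2)/Mt3) of DREADD Pilo from CAG-GFP Sham (-0.00939) ran from -0.61 to 0.89, turning to 0.00734 without CAG-GFP Sham 1 and to 0.89 without DREADD Pilo 3, and that from DREADD Sham (-0.69) from -1.28 to 0.21, the latter without DREADD Pilo 3. The genes called fell to 3 to 15, 6 to 12 and 4 to 10, except 152 in DREADD Pilo without DREADD Pilo 3. The lowest count of a member in any library was 241.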
